A study of Mus musculus with 2 samples.

Results

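The enzymes and enzyme subunits described here carry out glycolysis, gluconeogenesis, the conversion of pyruvate and the citric acid cycle. A list of 42 genes was taken by symbol from the 43346 Ensembl genes of the deposited tables, and all 42 were found. By role, 17 belong to glycolysis, 6 to the fate of pyruvate, 8 to gluconeogenesis and 11 to the citric acid cycle. The tissue was the small intestine of 1 adult female C57BL/6J mouse aged 10 weeks, with no treatment and no altered gene, so both libraries share animal, strain, sex and age. Polyadenylated RNA was sequenced in 2 technical libraries of 1 biological replicate. Technical replicate 2, made in 2015, is called the second library, and technical replicate 1 is called the first. No year is given here for technical replicate 1. It is not known here whether the 2 libraries share an RNA extraction. With no treatment contrast, the values give transcript levels in 1 intestine and the difference between its libraries.

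Glycolysis splits glucose into pyruvate in the cytosol, and each of its steps is served by 1 or more isozymes, enzymes of the same reaction encoded by different genes. Pyruvate is reduced to lactate, oxidised by the mitochondrial pyruvate dehydrogenase complex, or carboxylated at the start of gluconeogenesis, which runs back to glucose through its own enzymes at the irreversible steps. The citric acid cycle burns the acetyl group in mitochondria and supplies the respiratory chain. Enterocytes, the absorptive cells of the gut lining, are known for high levels of fructose-metabolising enzymes and for carrying the gluconeogenic enzymes that are otherwise typical of liver and kidney.

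The second library held 24509862 expected counts and the first 28277875. Expected counts are reads assigned to a gene by estimation, and TPM is the level per length, set to the same total for each library. Mitochondrial genes and their nuclear copies took 21.6% of TPM in the second library, against 72.3% in the first, so a nuclear gene's TPM was compressed in the first library. Ratios between the libraries therefore rest on counts scaled by TMM, a scaling to the bulk of genes, and are given as second over first library. A gene was called where an exact binomial test on its counts gave an adjusted p under 0.05 and the difference was 2-fold or more. That test compares these 2 libraries and covers counting error only. Enterocyte markers were present, each of the 9 at or above 1 TPM in both libraries, with summed TPM of 24309.8 in the second and 6530.2 in the first. Of the TPM of nuclear genes these sums were 3.10% and 2.36%. Apoa4 alone held 12533 TPM in the second library, against 22.5 TPM in the first. Of the 9, 6 were called higher in the second and 1, Sis, in the first, beside 39.2% and 29.1% of all tested genes. Pancreatic acinar markers were also present, each of the 6 at or above 1 TPM in both. Their summed TPM was 11080.4 in the second library, against 1977 in the first, or 1.41% and 0.715% of nuclear TPM. The part of other cells in the values below was not tested, and in bulk tissue fewer cells of a type and less RNA per cell cannot be told apart.

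Every one of the 42 genes reached 1 TPM in the second library, and 33 did so in the first. Their median level was 106.7 TPM in the second library and 20.5 TPM in the first, and 24 and 3 genes stood at 100 TPM or more. Together they took 1.58% of the TPM of nuclear genes in the second library, against 0.477% in the first. Gapdh, which oxidises glyceraldehyde 3-phosphate, was the highest of the 42 in the second library at 2138 TPM, and Ldha, the muscle-type lactate dehydrogenase subunit, was the highest in the first at 145 TPM. Glycolysis genes made up 47.2% of the summed TPM of the 42 in the second library, against 18.2% in the first, while citric acid cycle genes made up 34.6% and 44.5%. Pyruvate fate genes held 12.4% and 29.1%, and gluconeogenesis genes 5.78% and 8.21%. Across the 42 genes log2 TPM in both libraries had a Pearson's r of 0.66 and TPM a Spearman's rho of 0.58, as a description across genes that share the libraries.

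Of the 42 genes, 29 were called higher in the second library, 4 higher in the first and 9 were not called. Over all 15188 tested genes, those shares were 39.2% higher in the second, 29.1% higher in the first and 31.7% not called. The median log2 ratio of the 42 was 1.89, also with Hk3 at its bound, beside 0.19 over all tested genes. By role, 14 of 17 glycolysis genes, 6 of 8 gluconeogenesis genes, 7 of 11 citric acid cycle genes and 2 of 6 pyruvate fate genes were higher in the second library. The 4 genes higher in the first were Pdha1 and Dlat of the pyruvate dehydrogenase complex and Idh3a and Suclg2 of the citric acid cycle. Scaling by total counts, or by totals without mitochondrial genes, left none of these 4 called. On the TPM scale all 42 genes had the higher value in the second library, these 4 included.

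**Figure D1:**
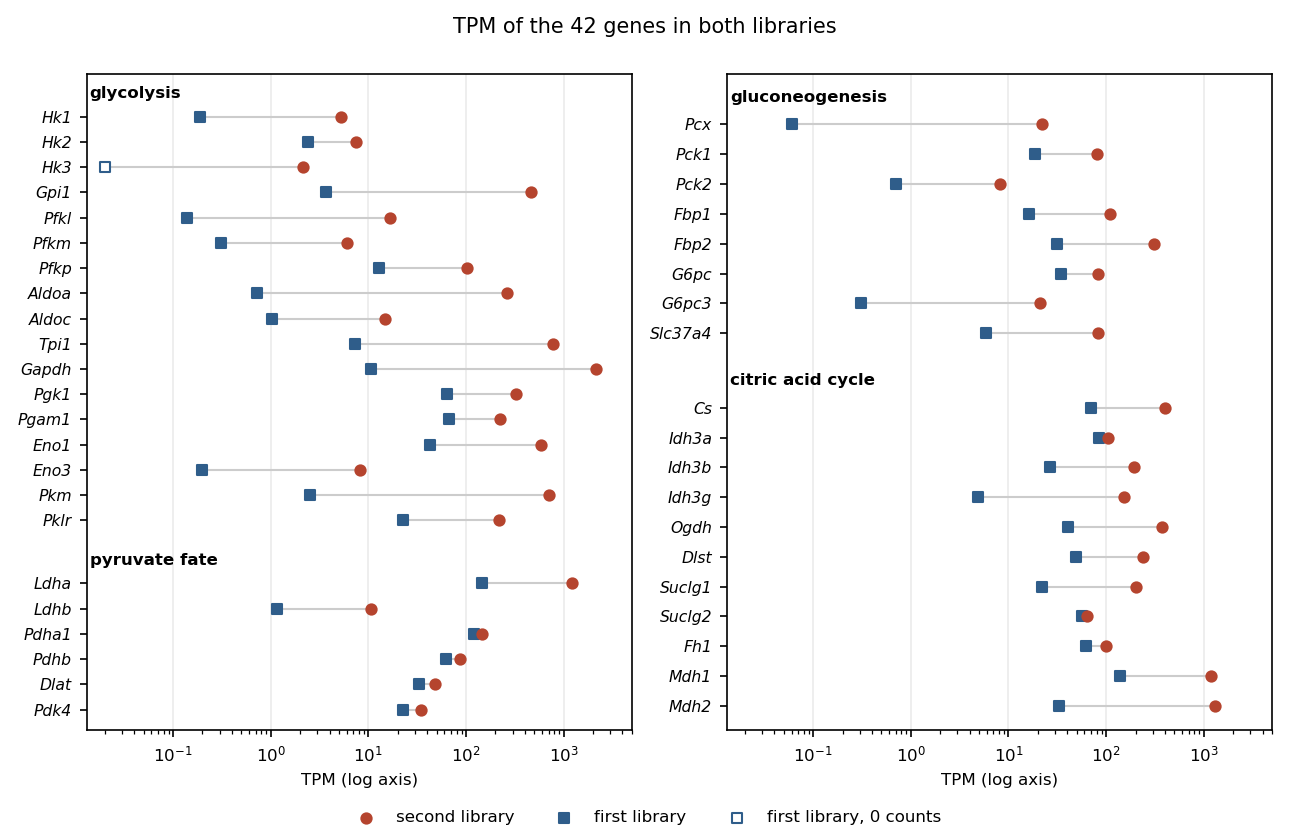
TPM of each gene on a log axis, by role, with the second library as circles and the first as squares. Hk3 had 0 counts in the first library and is drawn as an open square at the left edge. The gap is widest for genes such as Aldoa and Pcx and narrow for Idh3a, Suclg2 and Pdha1.

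The ratio followed the GC content of the transcripts. Among the 42 genes GC content and log2 ratio had a Pearson's r of 0.79 and a Spearman's rho of 0.78, and over 15121 tested nuclear genes an r of 0.80 and a rho of 0.86. The 9 genes with 55% GC or more had a median log2 ratio of 6.77, or 5.86 with Hk3, at 0 counts in the first library, set to its bound, where all tested genes of that range had 4.15. The 23 genes from 50% to 55% GC had a median of 2.15, beside 1.25 for all genes of that range. The 10 genes under 50% GC had a median of -0.48, beside -1.19. All 4 genes higher in the first library lay in this lowest range.

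The lowest and the highest GC contents of the 42 belonged to Idh3a, a subunit of the NAD-dependent isocitrate dehydrogenase, at 44.9%, and Pcx, pyruvate carboxylase, at 57.7%. In mm10 Idh3a lies at chr9:54586334-54604661 on the plus strand and Pcx at chr19:4510472-4621752 on the plus strand. To show what that difference looks like in sequence, 120 coding bases of each are given from the GENCODE M21 transcripts, chosen where the GC content is nearest to that of the gene, with G and C in capitals. The Idh3a stretch covers coding bases 38 to 157 and holds 54 G or C bases, and the Pcx stretch covers coding bases 1 to 120 and holds 69.
Idh3a: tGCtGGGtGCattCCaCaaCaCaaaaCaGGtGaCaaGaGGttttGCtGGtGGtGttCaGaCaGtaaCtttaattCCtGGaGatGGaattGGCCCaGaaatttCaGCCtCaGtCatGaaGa
Pcx: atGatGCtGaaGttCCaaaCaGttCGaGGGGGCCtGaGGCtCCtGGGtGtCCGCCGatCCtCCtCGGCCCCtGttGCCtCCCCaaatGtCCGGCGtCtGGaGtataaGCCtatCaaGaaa
Idh3a had 4398 counts (105 TPM) in the second library and 5486 counts (83.8 TPM) in the first. Pcx had 1644 counts (22.0 TPM) in the second library and 7 counts (0.06 TPM) in the first. On TMM-scaled counts Idh3a was therefore 2.05-fold higher in the first library (95% interval 1.97 to 2.13), and Pcx was 143-fold higher in the second (69.2 to 356).

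**Figure D2:**
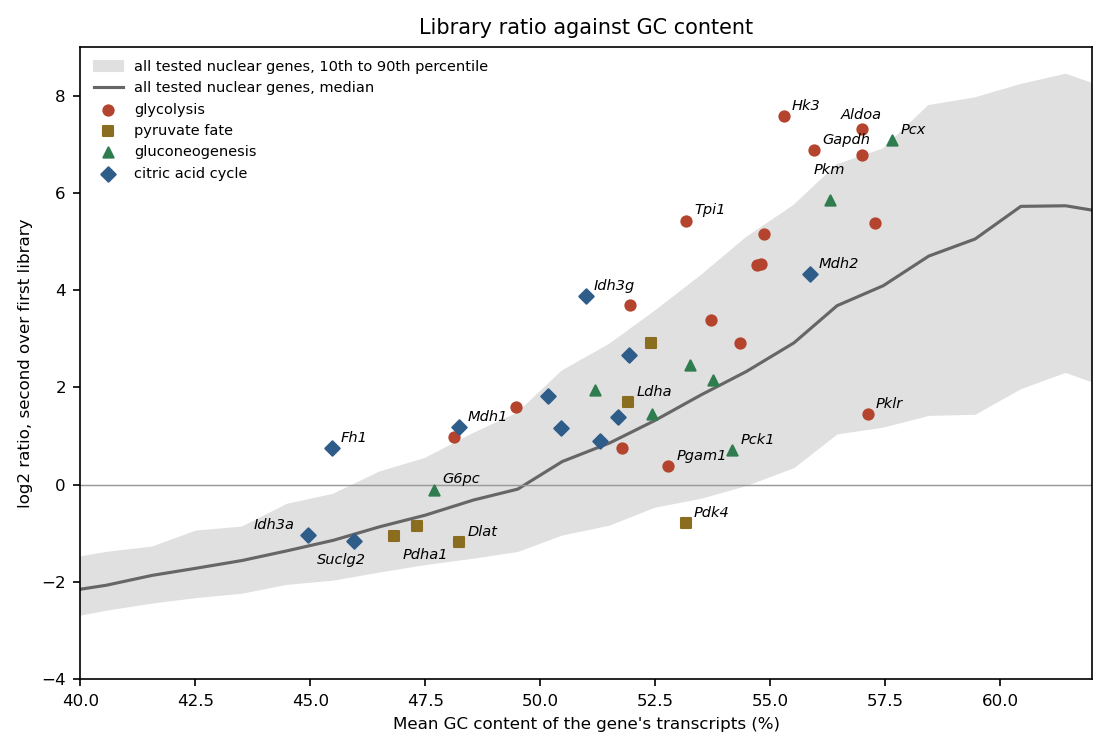
Log2 ratio of TMM-scaled counts, second over first library, against the mean GC content of a gene's transcripts, with the 42 genes as symbols by role and all tested nuclear genes as a median line and a band. Genes above the band include Hk1, Aldoa, Gapdh, Tpi1, Idh3g and Fh1, Pdk4 lies below it, and Pklr lies far below Pkm at nearly the same GC content. The point of Hk3, with 0 counts in the first library, depends on the 0.5 prior counts, and its bound lies within the band.

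Hexokinases phosphorylate glucose and so trap it in the cell, and the 3 listed isozymes were low in both libraries. Hk1, the broadly expressed form, had 369 counts (5.22 TPM) in the second library and 17 counts (0.19 TPM) in the first. Hk2, the insulin-responsive form of muscle and fat, had 367 counts (7.54 TPM) in the second library and 133 counts (2.40 TPM) in the first. Hk3, known from leukocytes, had 118 counts (2.15 TPM) in the second library and 0 counts in the first. Hk1 was 13.2-fold higher in the second library (95% interval 8.14 to 22.9), Hk3 was at least 23.9-fold higher against a floor of 3 counts, and Hk2 was not called at 1.68-fold (1.37 to 2.06). The 6 leukocyte markers had summed TPM of 187 in the second library, against 48.6 in the first. Of them 3 were higher in the second and 1 in the first, beside 39.2% and 29.1% of all tested genes. The step was carried mainly by Hkdc1, a hexokinase domain gene outside the list, with 7845 counts (140.5 TPM) in the second library and 101 counts (2.22 TPM) in the first. In the second library Hkdc1 stood 18.6-fold above Hk2 in TPM (95% interval 16.8 to 20.7), while in the first Hk2 over Hkdc1 was 1.08 (0.83 to 1.40), so their order there was within counting error.

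Gpi1, which interconverts glucose and fructose 6-phosphate, differed strongly between the libraries. It had 16379 counts (466 TPM) in the second library and 280 counts (3.68 TPM) in the first, a 35.6-fold difference (95% interval 31.6 to 40.2). Phosphofructokinase, the committed step of glycolysis, has liver, muscle and platelet isozymes. The platelet form Pfkp led, with 5644 counts (101 TPM) in the second library and 1135 counts (12.9 TPM) in the first. The liver form Pfkl had 1056 counts (16.7 TPM) in the second library and 15 counts (0.14 TPM) in the first. The muscle form Pfkm had 303 counts (6.00 TPM) in the second library and 24 counts (0.31 TPM) in the first. All 3 were higher in the second library, by 3.03-fold for Pfkp (2.84 to 3.23), 42.8-fold for Pfkl (25.9 to 76.8) and 7.68-fold for Pfkm (5.07 to 12.2), although Pfkm was not called with the GC trend removed (log2 ratio 0.66). Pfkp shares 748 exon bases with Pitrm1, at 546 counts in the second library, against 332 in the first, and the sources used here do not say whether reads were assigned by strand. Pfkp held 81.7% of the step's TPM in the second library, against 96.6% in the first.

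Aldolases split fructose 1,6-bisphosphate into triose phosphates. Aldoa, the muscle and red cell form, had 6370 counts (260.15 TPM) in the second library and 24 counts (0.72 TPM) in the first, and its 161-fold difference (95% interval 108 to 252) was the largest fitted fold among the 41 genes with counts in both libraries. Aldoc, the brain form, had 468 counts (14.75 TPM) in the second library and 27 counts (1.04 TPM) in the first. Both were higher in the second library. Erythroid markers, globins among them, had summed TPM of 391 in the second library, against 6.73 in the first, with all 5 tested of 6 higher in the second. Smooth muscle markers had summed TPM of 891 in the second library, against 28.7 in the first, with 8 of 8 higher in the second. Over all tested genes 39.2% were higher in the second, and 54.9% of tested nuclear genes from 50% to 55% GC. The median GC content was 54.5% for the erythroid and 53.2% for the smooth muscle markers.

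Triose phosphate isomerase, Tpi1, had 20063 counts (778 TPM) in the second library and 283 counts (7.35 TPM) in the first, a 43.1-fold difference (95% interval 38.4 to 48.7). Gapdh, often used as a reference gene for normalisation, had 48349 counts (2138 TPM) in the second library and 249 counts (10.75 TPM) in the first, and was 118-fold higher in the second (104 to 134). Among protein-coding nuclear genes it ranked at place 33 in the second library and at place 3439 in the first. The gene lies at chr6:125161715-125166467 on the minus strand in mm10. Gapdh has many processed pseudogenes, and 82 copies with 95% identity or more over 300 bases or more were found in the annotation. The strongest of them, Gm7336, matched all 999 Gapdh coding bases with no difference and was assigned 81.1 TPM in the second library, against 0 in the first. The stretch below, coding bases 440 to 559 of Gapdh (GENCODE M21), is held whole by Gm7336 and is printed to show bases whose reads cannot be told apart between the gene and that copy.
Gapdh: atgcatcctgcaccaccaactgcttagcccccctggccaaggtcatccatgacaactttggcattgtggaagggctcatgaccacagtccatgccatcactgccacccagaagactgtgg
Of the counts of Gapdh and its copies together, the copies held 3.07% in the second library, against 16.9% in the first. The other copies at 1 TPM or more in either library, Gm3839, 3000002C10Rik and Gm5069, did not hold the stretch and differed from the Gapdh coding sequence at 7, 49 and 34 aligned bases.

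Pgk1 forms the first ATP of the pathway. It had 10092 counts (325 TPM) in the second library and 3116 counts (64.4 TPM) in the first, or 1.97-fold (95% interval 1.89 to 2.05), just under the threshold. It was called higher in the second library with total counts (log2 ratio 1.90), with totals without mitochondrial genes (1.26) and with the GC trend removed (1.40). Pgam1, the broadly expressed phosphoglycerate mutase, had 7002 counts (225 TPM) in the second library and 3287 counts (67.7 TPM) in the first, or 1.30-fold (1.24 to 1.35). Each has a copy with no different base over the aligned coding bases, 1250 of 1251 for Pgk1 and 762 of 762 for Pgam1. The Pgk1 copy, Pgk1-rs7, was assigned 9.50 TPM in the second library and 1.79 TPM in the first, and Pgam1-ps2 was assigned 14.6 TPM in the second and 0 in the first. With the counts of copies added, the number of genes called in each direction was the same.

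Enolase makes phosphoenolpyruvate. Eno1, the broadly expressed form, had 20372 counts (590.3 TPM) in the second library and 535 counts (42.6 TPM) in the first, a 23.2-fold difference in TMM-scaled counts (95% interval 21.3 to 25.3). Its TPM in the first library rested on a 519-base transcript, Eno1-210, which held 39.75 of the gene's 42.6 TPM there. Eno3, the muscle form, had 165 counts (8.17 TPM) in the second library and 4 counts (0.20 TPM) in the first, and was 25.1-fold higher in the second (9.62 to 93.2). Striated muscle markers had summed TPM of 21.1 in the second library, against 0.25 in the first. All 4 tested of 10 were higher in the second, beside 39.2% of all tested genes, and 1 of the 4 with the GC trend removed. In the first library 9 of 10 were at 0 counts, and Myh4 was at 0 in both. Eno1 held 98.3% of enolase TPM in the second library, against 99.3% in the first, while Eno2, the neuronal form outside the list, stood at 2.24 TPM in the second library and 0.11 TPM in the first.

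At pyruvate kinase, the last step of glycolysis, the isozyme genes changed places between the libraries. Pkm, which encodes the M1 form of muscle and the M2 form of many other tissues, had 30047 counts (708 TPM) in the second library and 167 counts (2.52 TPM) in the first. Pklr, which encodes the liver and red cell forms, had 8167 counts (216 TPM) in the second library and 1822 counts (22.7 TPM) in the first. Pkm was 109-fold higher in the second library (95% interval 94.0 to 128) and Pklr 2.73-fold (2.59 to 2.87). Pkm stood 3.28-fold above Pklr in TPM in the second library (3.20 to 3.36), whereas Pklr stood 9.01-fold above Pkm in the first (7.69 to 10.6). The ratio of Pkm to Pklr counts was thus 40.1 times as high in the second library as in the first (34.2 to 47.1), a value that no scaling of the libraries moves. The shift was 7.87 for Hk1 over Hk2 (4.65 to 13.3), 2.75 for Pck2 over Pck1 (2.11 to 3.57), 2.37 for Ldhb over Ldha (1.46 to 3.83) and 0.92 for Eno1 over Eno3 (0.34 to 2.50), the other isozyme pairs compared whose GC contents lay within 1 percentage point of each other. In mm10 Pkm lies at chr9:59656368-59679375 on the plus strand and Pklr at chr3:89136142-89146784 on the plus strand. Mean GC content was 57.0% for Pkm and 57.1% for Pklr, and the coding sequences were 72.2% identical with no shared run longer than 31 bases.

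The M1 and M2 forms of Pkm differ by a choice between neighbouring exons of 167 bases each, counted as the ninth exon in either transcript. They are printed from the plus strand of mm10, at chr9:59675029-59675195 for M1 and chr9:59675568-59675734 for M2, with capitals at the 64 positions where they differ. The exons share 103 positions, an identity of 61.7%.
Pkm M1 exon: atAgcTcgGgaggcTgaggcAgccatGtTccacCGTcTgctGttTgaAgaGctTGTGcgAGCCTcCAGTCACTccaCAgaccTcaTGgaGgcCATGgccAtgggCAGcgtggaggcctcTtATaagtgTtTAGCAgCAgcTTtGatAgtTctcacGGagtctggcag
Pkm M2 exon: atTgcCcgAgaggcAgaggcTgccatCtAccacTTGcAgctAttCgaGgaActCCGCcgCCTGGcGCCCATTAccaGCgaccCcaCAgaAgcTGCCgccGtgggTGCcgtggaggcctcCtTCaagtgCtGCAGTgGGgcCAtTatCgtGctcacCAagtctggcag
In the second library the transcript with the M2 exon held 94.6% of Pkm TPM, from 28434 counts, and the transcript with the M1 exon held 5.37%, from 1613 counts. In the first library the 167 Pkm counts were split evenly, 83.5 to each transcript, as an estimate does where no read tells the forms apart, so the share of 50% there is not read as a measurement of the M1 form.

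On TMM-scaled counts both lactate dehydrogenase genes were higher in the second library and no pyruvate dehydrogenase gene was. With the GC trend removed Ldha was not called, at a log2 ratio of 0.69, and no pyruvate dehydrogenase gene was called either. Ldha had 32050 counts (1210.3 TPM) in the second library and 5993 counts (145 TPM) in the first, and Ldhb, the heart-type subunit, had 228 counts (10.75 TPM) in the second library and 18 counts (1.17 TPM) in the first. The TPM ratio of Ldha to Ldhb was 113 in the second library (95% interval 98.8 to 128), against 124 in the first (78.1 to 197). These intervals overlap, although in counts Ldhb over Ldha was higher in the second library, as given above. In the first library 16.4 of the 18 Ldhb counts were set on the 685-base Ldhb-202. The length used for Ldhb was thus 710 bases there, against 1304 in the second library, which the TPM ratio intervals leave out. Ldha was 3.25-fold higher in the second library (3.17 to 3.35) and Ldhb 7.71-fold (4.77 to 13.2). Pdha1, the catalytic alpha subunit of pyruvate dehydrogenase, had 7354 counts (147 TPM) in the second library and 9323 counts (119.7 TPM) in the first. Pdhb, its beta subunit, had 2157 counts (87.6 TPM) in the second library and 2369 counts (61.8 TPM) in the first. Dlat, the acetyltransferase core of the complex, had 1927 counts (48.6 TPM) in the second library and 2676 counts (32.8 TPM) in the first. On TMM-scaled counts Pdha1 was 2.08-fold and Dlat 2.28-fold higher in the first library, and Pdhb was not called at 1.81-fold (95% interval 1.702 to 1.914). Within the complex, Pdha1 over Pdhb was 1.68 in TPM in the second library, against 1.94 in the first, and the count ratio in the second library was 0.87 of that in the first (0.81 to 0.93). Pdk4, the kinase that shuts the complex off in fasting and fat oxidation, had 2123 counts (34.8 TPM) in the second library and 2228 counts (22.9 TPM) in the first and was not called. With scaling by total counts the log2 ratios of Pdhb and Pdk4 changed sign. Pdk2, a kinase of the same complex outside the list, had 2896 counts (78.35 TPM) in the second library and 29 counts (0.48 TPM) in the first, and it led the step in the second library, whereas Pdk4 led in the first.

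Gluconeogenesis transcripts were present along the whole route in the second library. Pcx, which makes oxaloacetate from pyruvate, is described above. Pck1, the cytosolic phosphoenolpyruvate carboxykinase, had 3651 counts (81.55 TPM) in the second library and 1365 counts (18.75 TPM) in the first and was not called at 1.63-fold (95% interval 1.53 to 1.73). Pck2, the mitochondrial form, had 492 counts (8.11 TPM) in the second library and 67 counts (0.71 TPM) in the first, 4.47-fold higher in the second (3.46 to 5.86), and was not called with the GC trend removed (log2 ratio 0.22). The cytosolic form led in both, with a TPM ratio of Pck1 to Pck2 of 10.1 in the second library (9.15 to 11.0), against 26.4 in the first (20.7 to 33.7). Pck1 is also an adipocyte gene, and the 7 adipocyte markers had summed TPM of 308 in the second library, against 42.04 in the first. None was at 0 counts. Of the 7, 4 were higher in the second and 0 in the first, beside 39.2% and 29.1% of all tested genes.

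Fructose 1,6-bisphosphatase is encoded by Fbp1, the liver form, and Fbp2, known as the muscle form, and Fbp2 led. Fbp2 had 6736 counts (312 TPM) in the second library and 1067 counts (31.8 TPM) in the first. Fbp1 had 2653 counts (108 TPM) in the second library and 588 counts (16.2 TPM) in the first. The TPM ratio of Fbp2 to Fbp1 was 2.88 in the second library (95% interval 2.75 to 3.01), against 1.96 in the first (1.77 to 2.16). Both were higher in the second library, Fbp2 by 3.84-fold (3.60 to 4.10) and Fbp1 by 2.75-fold (2.51 to 3.01), but Fbp1 was not called with the GC trend removed (log2 ratio 0.20). The 10 striated muscle markers summed to 21.1 TPM in the second library and 0.25 TPM in the first. The 8 smooth muscle markers summed to 891 TPM in the second library and 28.7 TPM in the first. The part of muscle cells in the values of Fbp2 was not tested. The coding sequences of Fbp1 and Fbp2 were 71.8% identical, with no shared run longer than 23 bases.

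Glucose-6-phosphatase releases free glucose in the endoplasmic reticulum. G6pc, the catalytic form of liver, kidney and intestine, had 3472 counts (82.4 TPM) in the second library and 2271 counts (34.5 TPM) in the first. Its log2 ratio of -0.10 was the closest to 0 of the 42, with an adjusted p of 0.0092 in the exact binomial test, and its sign turned with both scalings by total counts and with the GC trend removed. G6pc3, the ubiquitous form, had 512 counts (20.9 TPM) in the second library and 5 counts (0.31 TPM) in the first, 62.3-fold higher in the second (95% interval 26.5 to 193). Slc37a4, which carries glucose 6-phosphate into the endoplasmic reticulum, had 2975 counts (82.9 TPM) in the second library and 330 counts (5.89 TPM) in the first, 5.49-fold higher in the second (4.89 to 6.16), and was not called with the GC trend removed (log2 ratio 0.79). G6pc held 79.6% of the step's TPM in the second library, against 98.7% in the first. Hepatocyte markers, whose tissue shares G6pc, Pck1 and Fbp1, summed to 18.5 TPM in the second library and 6.70 TPM in the first. Of the TPM of nuclear genes this was 0.00235% and 0.00242%. Ahsg was at 0 counts in both, and Fga and Tat were at 0 in the second. Of 5 tested, 2 were higher in the second and 1, Alb, in the first, beside 39.2% and 29.1% of all tested genes. The part of such cells in the values of G6pc, Pck1 and Fbp1 was not tested.

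The citric acid cycle opened with citrate synthase, Cs, at 20029 counts (401 TPM) in the second library and 5448 counts (69.8 TPM) in the first, 2.24-fold higher in the second (95% interval 2.17 to 2.31), and not called with the GC trend removed (log2 ratio 0.78). The 3 subunits of isocitrate dehydrogenase 3 differed in direction on TMM-scaled counts. Idh3a, the catalytic subunit given above, was higher in the first library, whereas its partners were higher in the second. Idh3b had 5023 counts (192 TPM) in the second library and 1160 counts (26.5 TPM) in the first, and Idh3g had 3175 counts (151 TPM) in the second library and 131 counts (4.91 TPM) in the first. The ratio of Idh3g to Idh3a counts was 30.2 times as high in the second library as in the first (25.3 to 36.2), and that of Idh3b to Idh3a was 5.40 times as high (5.01 to 5.82). GC content was 44.9% for Idh3a, 51.7% for Idh3b and 51.0% for Idh3g. With the GC trend removed Idh3a turned to 0.18 and Idh3b stood at 0.48, neither of them called, so that their difference was 0.30 on the log2 scale, against 2.43 before. Idh3g, at 3.27, was still called.

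The oxoglutarate dehydrogenase complex was measured by Ogdh, its first enzyme, and Dlst, its succinyltransferase core. Ogdh had 27235 counts (372 TPM) in the second library and 2610 counts (40.9 TPM) in the first, 6.35-fold higher in the second (95% interval 6.10 to 6.61). Dlst had 11504 counts (236 TPM) in the second library and 3774 counts (49.5 TPM) in the first and was not called at 1.85-fold (1.79 to 1.92). Succinyl-CoA ligase pairs the alpha subunit Suclg1 with a GTP-forming beta subunit, Suclg2, or an ATP-forming one, Sucla2. Suclg1 had 5151 counts (204 TPM) in the second library and 881 counts (22.2 TPM) in the first, 3.56-fold higher in the second (3.31 to 3.83). Suclg2 had 2531 counts (63.95 TPM) in the second library and 3463 counts (56.0 TPM) in the first, 2.25-fold higher in the first (2.14 to 2.37). Sucla2, outside the list, led the beta subunits with 187 TPM in the second library and 212 TPM in the first.

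Fh1, fumarase, had 2688 counts (100.05 TPM) in the second library and 968 counts (61.8 TPM) in the first and was not called at 1.69-fold (95% interval 1.57 to 1.82), though it was with both scalings by total counts (log2 ratios 1.68 and 1.04). Malate dehydrogenase closes the cycle in mitochondria as Mdh2 and works in the cytosol as Mdh1. Mdh2 had 29559 counts (1299.8 TPM) in the second library and 897 counts (33.0 TPM) in the first, 20.1-fold higher in the second (18.8 to 21.5). Mdh1 had 27699 counts (1173 TPM) in the second library and 7392 counts (139 TPM) in the first, 2.28-fold higher in the second (2.22 to 2.34). The pair was near parity in the second library, with a TPM ratio of Mdh2 to Mdh1 of 1.11 (1.09 to 1.13), whereas Mdh1 stood 4.22-fold above Mdh2 in the first (3.93 to 4.52). The log2 shift of their count ratio was 3.14, and -0.41 with the GC trend removed, where GC content was 55.9% for Mdh2 and 48.2% for Mdh1. Among the 42 genes Mdh2 came next to Gapdh in TPM in the second library, followed by Ldha and Mdh1, and Mdh1 came next to Ldha in the first.

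At 8 of 12 steps with more than 1 isozyme gene, the gene of highest TPM was the same in both libraries, and FPKM, counts per length and the addition of copies gave the same number. These were phosphofructokinase (Pfkp), phosphoglycerate mutase (Pgam1), enolase (Eno1), lactate dehydrogenase (Ldha), phosphoenolpyruvate carboxykinase (Pck1), fructose bisphosphatase (Fbp2), glucose-6-phosphatase (G6pc) and the beta subunit of succinyl-CoA ligase (Sucla2). The leader differed at glucose phosphorylation, pyruvate kinase, pyruvate dehydrogenase kinase and malate dehydrogenase. In each of these 4 the gene that led in the second library and not in the first was Hkdc1, Pkm, Pdk2 or Mdh2, with GC contents of 54.1%, 57.0%, 57.0% and 55.9%. The leaders in the first library, Hk2, Pklr, Pdk4 and Mdh1, had 51.8%, 57.1%, 53.2% and 48.2%. In that order of steps, the log2 shifts of the count ratios were 4.81, 5.33, 6.71 and 3.14. With the GC trend removed they were 3.62, 5.39, 4.50 and -0.41.

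**Figure D3:**
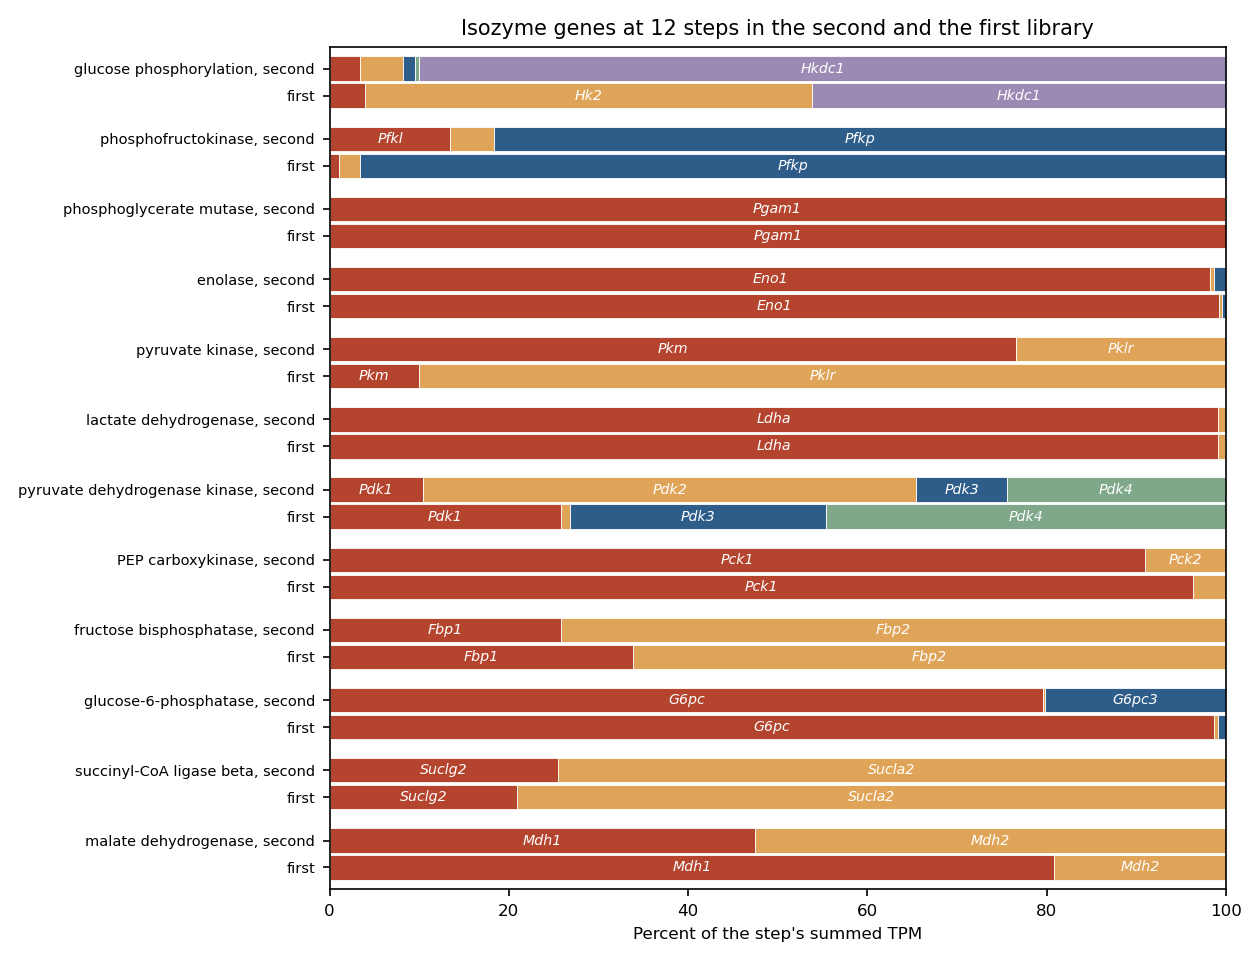
Share of each isozyme gene in the summed TPM of its step, in percent, with the second library above the first at each of 12 steps. Pkm held 76.6% of pyruvate kinase TPM in the second library, against 9.99% in the first, while Ldha held 99.1% of its step in both.

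Of the pathway genes outside the list, 13 of 19 in glycolysis and gluconeogenesis were tested, of which 6 were higher in the second and 0 in the first, beside 39.2% and 29.1% of all tested genes. With the GC trend removed the counts were 2 and 2, beside 17.4% and 17.5%. After Hkdc1 the highest of these 19 by the mean of both libraries were Pgm2, a phosphoglucomutase family member, at 90.02 TPM in the second library and 47.4 TPM in the first, not called, and Pfkfb4, which sets fructose 2,6-bisphosphate, at 66.9 TPM in the second and 0.40 TPM in the first, higher in the second.

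Of 14 genes of pyruvate entry and its control, 13 were tested. Of these, 2 were higher in the second and 6 in the first, beside 39.2% and 29.1% of all tested genes. Once GC was allowed for, 2 were higher in the second and 2 in the first, beside 17.4% and 17.5%. The mitochondrial pyruvate carrier subunits were among the most abundant, Mpc1 at 161 TPM in the second library and 139 TPM in the first, and Mpc2 at 113 TPM in the second and 134 TPM in the first. On TMM-scaled counts Mpc1 was higher in the first library and Mpc2 was not called. Dld, the dehydrogenase shared by the pyruvate and oxoglutarate complexes, stood at 115 TPM in the second library and 189 TPM in the first and was higher in the first, with a GC content of 40.6%. Pdha2, the testis form of Pdha1, had 0 counts in both.

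Of 21 further genes around the citric acid cycle, 20 were tested. Of these, 8 were higher in the second, close to the 39.2% of all tested genes, and 4 in the first, beside 29.1%. Once GC was allowed for, 4 were higher in the second and 1 in the first, beside 17.4% and 17.5%. Succinate dehydrogenase is also part of the respiratory chain. Sdhb, the iron-sulfur subunit, stood at 401 TPM in the second library and 24.6 TPM in the first and was higher in the second. Sdha, the flavoprotein subunit, stood at 300.5 TPM in the second library and 132 TPM in the first, and Sdhd, a membrane anchor, at 531 TPM in the second and 155 TPM in the first, and neither was called. Idh1, the cytosolic isocitrate dehydrogenase, stood at 292 TPM in the second library and 286 TPM in the first and was higher in the first on TMM-scaled counts. Mdh1b had 0 counts in both.

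The transcripts behind the gene values also differed. Of 25 genes whose level reached 10 TPM in both libraries, 18 had the same leading transcript in both and 7 did not, and 12 of the 25 had a single transcript at 1 TPM or more. Gapdh-203, of 1420 bases, held 93.6% of Gapdh TPM in the second library, against 3.40% in the first, where the 471-base Gapdh-207 led with 36.8%. Eno1-202, of 2027 bases, held 98.0% of Eno1 TPM in the second library, against 3.49% in the first. Mdh2-201 held 80.5% of Mdh2 TPM in the second library, against 2.17% in the first, where Mdh2-203, annotated as a target of nonsense-mediated decay, held 96.1%. Mdh2-203 held 18.7% in the second library. Fh1-201 held 50.6% in the second library, against 6.87% in the first, where the 599-base Fh1-204, also annotated for nonsense-mediated decay, held 37.4%. Ogdh-201 held 50.7% in the second library, against 32.0% in the first, where the 621-base Ogdh-206 held 35.5%. In these 5 genes the transcript that led in the first library was shorter than the one that led in the second.

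Pfkp and Dlat went the other way. Pfkp-201, of 2679 bases, held 52.5% of Pfkp TPM in the second library, against 22.0% in the first, where Pfkp-207, of 4145 bases, held 51.0%. Dlat-202, a noncoding transcript of 770 bases, held 48.65% of Dlat TPM in the second library, against 33.3% in the first, where the coding Dlat-201, of 4035 bases, held 66.7%. Per count the picture for Dlat was steadier, since Dlat-201 took 85.0% of Dlat counts in the second library, against 93.0% in the first. A TPM set on a short transcript is large for few counts, so the levels of Eno1, Fh1 and Ogdh in the first library depend on this assignment, and their count ratios do not. The level of Ldhb in the first library, given above, depends on such an assignment too.

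**Figure D4:**
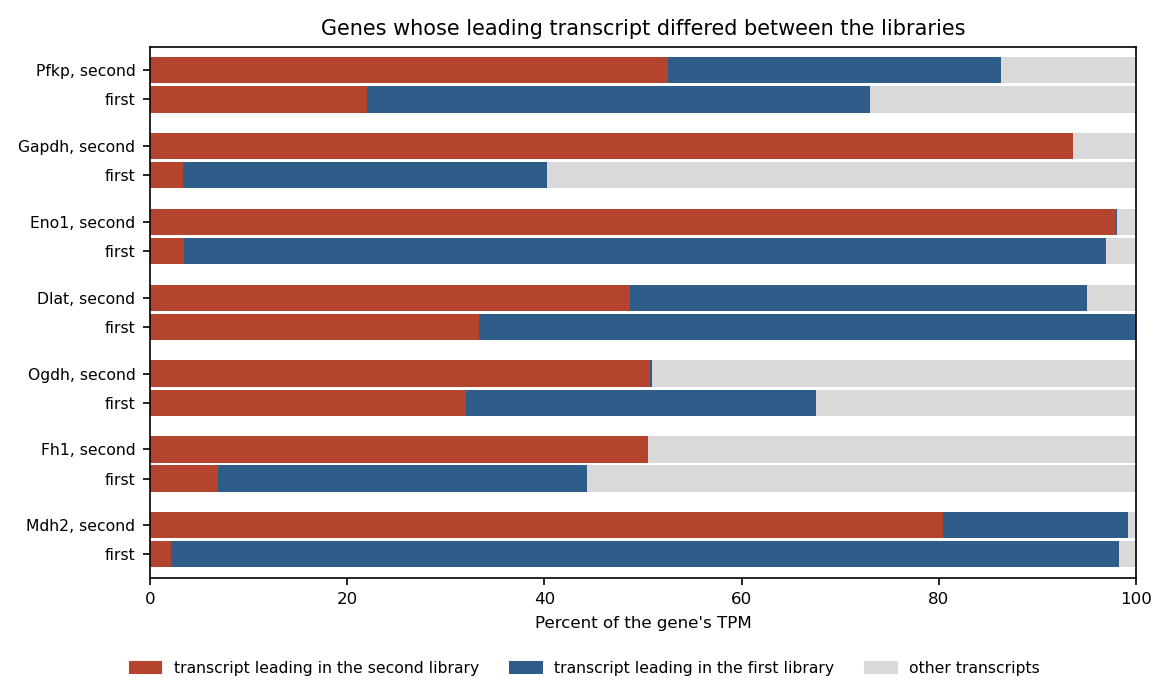
Share of the gene's TPM, in percent, held by the transcript that led in the second library, the one that led in the first and all others, with the second library above the first for each of 7 genes. The leading transcript of the second library held 3.40% in the first for Gapdh, 3.49% for Eno1 and 2.17% for Mdh2.

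Protein-coding transcripts took 97.6% of the counts of the 42 genes in the second library, against 96.3% in the first, beside 95.3% and 93.0% over 21436 nuclear protein-coding genes. Retained-intron transcripts took 0.891% of the counts of the 42 in the second library, against 1.52% in the first, beside 2.39% and 3.14% over all. By role the retained-intron share was 1.42% in the second library, against 4.23% in the first, for glycolysis, 0.379% against 1.76% for the citric acid cycle, 1.49% against 0.526% for gluconeogenesis and 0.118% against 0.087% for pyruvate fate. The genes that follow were chosen after their values were seen. In Gpi1 it was 5.57% of 16379 counts in the second library and 73.2% of 280 counts in the first. Aldoa had 2.75% in the second library and 34.25% of 24 counts in the first, and Idh3g had 6.69% in the second and 53.4% of 131 counts in the first. Pck1 went the other way, with 9.01% in the second library, against 2.20% in the first.

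After the lowess trend of log2 ratio on GC content was removed, 23 of the 42 genes were higher in the second and 4 in the first library, where 17.4% and 17.5% of 15145 tested genes were. The median log2 ratio was then 1.33, beside -0.01 over all tested genes. Among the 42 genes GC content and this ratio still had a Pearson's r of 0.30 and a Spearman's rho of 0.37. Of the 29 genes called higher in the second beforehand, 21 were so after, 7 were no longer called and 1, Pklr, was higher in the first. The 7 were Pfkm, Ldha, Pck2, Fbp1, Slc37a4, Cs and Idh3b, and Pgk1 and Fh1, not called beforehand, were then higher in the second. The glycolysis genes had the highest median of the 4 roles, 2.01, or 1.76 with Hk3 at its bound, with 13 of 17 called higher in the second, and Pgam1 and Pklr higher in the first. The median GC content of the glycolysis genes, 54.7%, was also the highest of the 4 roles. Aldoa had 3.53 after removal, Tpi1 3.81, Gapdh 3.68, Idh3g 3.27 and Pkm 2.99. In contrast Pklr had -2.40, Pdk4 -2.41, Pck1 -1.46 and Pgam1 -1.06, and these 4 were the genes higher in the first library. Pyruvate dehydrogenase genes lay near 0, with -0.28 for Pdha1 and -0.21 for Pdhb, and Dlat, at -0.80, was not called.

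**Figure D5:**
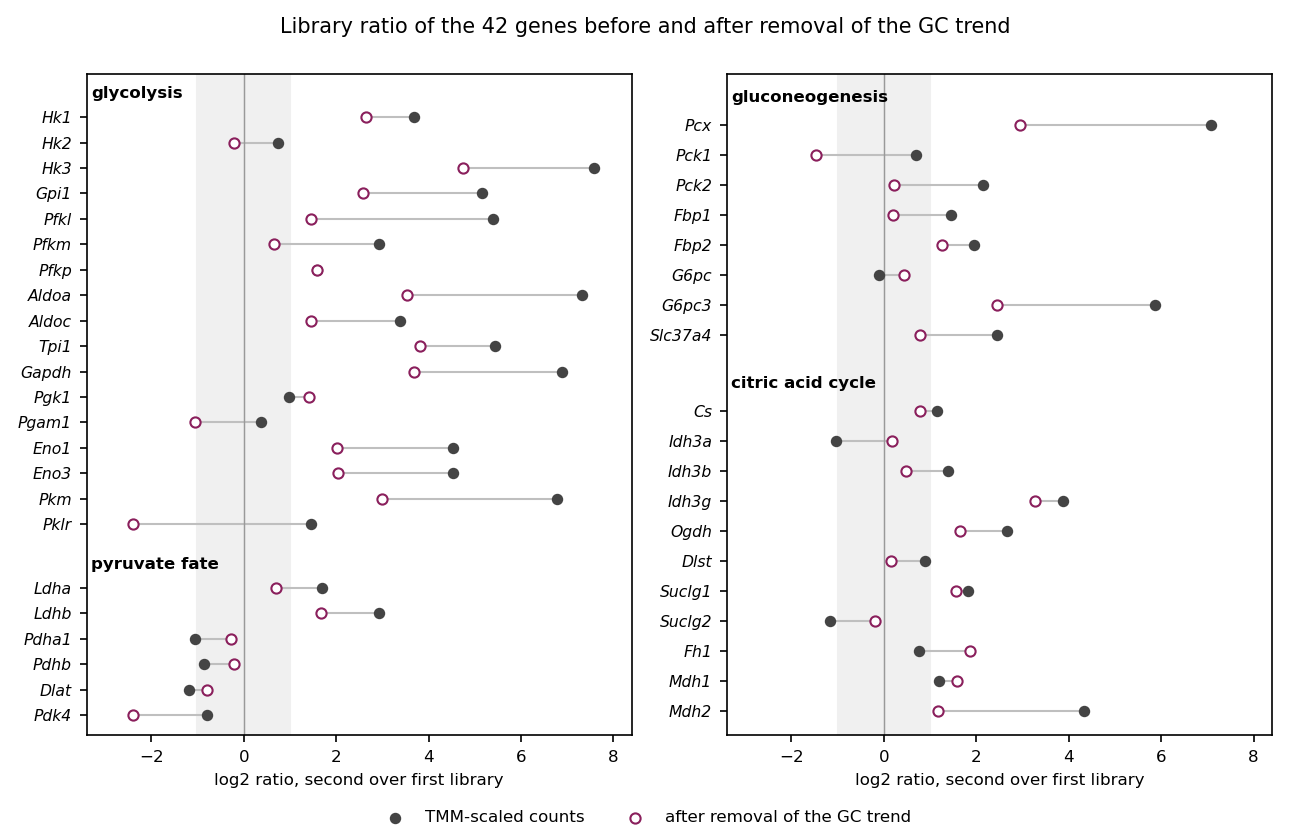
Log2 ratio, second over first library, of each gene on TMM-scaled counts (filled) and after removal of the GC trend (open), by role, with the range under 2-fold shaded. Most glycolysis genes stay to the right of the shaded range, and Pklr, Pdk4, Pck1 and Pgam1 move to its left.

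Markers of other cell types are given beside this pattern on the same scale. After removal of the GC trend, 7 of 8 smooth muscle markers, all 5 tested erythroid markers, 3 of 6 leukocyte markers and 1 of 4 tested striated muscle markers were higher in the second library, and 0 of them in the first. Over all tested genes those shares were 17.4% in the second and 17.5% in the first. Of 9 enterocyte markers, 4 were higher in the second, and Anpep and Cdx2 in the first. Pancreatic acinar markers were higher in the second library for 5 of 6. Of 7 adipocyte markers, 3 were higher in the second and 0 in the first. Of 5 tested hepatocyte markers, 1 was higher in the second and 2 in the first. Of 8 neuron and glia markers, 1 was higher in the second and 1 in the first. Before removal all 4 tested striated muscle markers were higher in the second library, beside 39.2% of all tested genes. The leukocyte marker Ptprc was then 3.48-fold higher in the first. The part of these cell types in the values of Hk3, Aldoa, Pkm and Eno3 was not tested.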

How the data were processed

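Each library came as gene-level and transcript-level RSEM tables, per the file headers, with assembly mm10 and annotation M4 per the deposited notes. Expected counts were deposited per gene and transcript as estimates, often with decimals, TPM and FPKM were deposited as levels per length, and isoform shares were deposited as percent of the gene's TPM. Aligner, versions, read filters and counting strand are not named in the sources used here, and 6 of the 42 genes share exon bases with an overlapping gene. Whether the libraries are separate extractions is not known. Because neither side of the comparison has a replicate library, p-values cover counting error only and hold no estimate of spread between replicates.

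Symbols and biotypes came from GENCODE M21 by identifier. edgeR 4.0.16 gave TMM sizes. With 1 library on each side its quasi-likelihood test could not be fitted, so a two-sided exact binomial test was run on expected counts rounded to whole numbers, for genes with 20 or more counts over both libraries, with Benjamini-Hochberg adjustment. Log2 ratios used 0.5 prior counts, also where a count was 0. Intervals are 95% and cover only counting error, because each side has 1 library. They leave out the estimation of expected counts, and duplicate PCR reads, which can count as separate molecules. Only for a fold given as a bound was a count of 0 set to a floor of 3 counts. Of total counts this floor was 0.122 CPM in the second library and 0.106 CPM in the first, while the bound itself used TMM sizes. Fold intervals are exact (Clopper-Pearson), and TPM ratio and shift intervals are normal on the log scale. GC trends were fitted by lowess with a span of 0.3. Copies were found with BLAST 2.17.0 with a minimum of 95% identity and 100 bases, and those kept matched on the plus strand over 300 bases or more outside the gene's own locus, a limit chosen after the matches were seen. The genes and lists were chosen with earlier results of these data known, and all 42 genes are described. Of other pathway genes, up to 4 of highest mean TPM in each list, those at 0 counts in both libraries and isozymes at the same step are named. A few genes of these lists, and the isozyme shares at 1 step, are not reported here. The shifts between isozyme pairs were computed after their values were seen.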

Additional observations from a re-analysis of the deposited data

How the results depend on the processing

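The number of the 42 genes higher in the second library stayed within 1.5 times of 29 under every alternative run. The share of all tested genes moved more, from 39.2% to 17.4% with the GC trend removed, where 23 of the 42 were called. With total counts it was 51.3%, where 35 of the 42 were called. The number higher in the first was 4, beside 29.1% of all tested genes. It was 0 with scaling by total counts, beside 9.99%, and 0 with totals without mitochondrial genes, beside 23.2%. At a 3-fold limit it was 0, beside 17.0%, and at any fold 7, beside 41.2%, where the limits themselves admit fewer or more genes. The median log2 ratio of 1.89 was 2.81 with total counts, 2.17 with totals without mitochondrial genes, 1.33 with the GC trend removed, 2.84 with TPM + 1, 3.19 with TPM + 0.1, and 1.77 with counts of every match of 100 bases or more added, a setting chosen after seeing the data. With those settings the median of all tested genes was 1.10, 0.47, -0.01, 0.94, 1.41 and 0.18, beside 0.19. The mean M1 share of Pkm TPM, 27.7%, lay between 5.37% and 50% when a library was left out, since it averages an estimate and an even split. No paired analysis was possible because the series has 1 group. With 1 library of each kind, no difference has a replicate check, and the 17 counts of Hk1, 15 of Pfkl, 7 of Pcx, 5 of G6pc3 and 4 of Eno3 in the first library limit those folds to wide intervals.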
